A study of Mus musculus with 4 samples.

Results

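T follicular helper-like CD4 T cells (Tfh-like cells below) of mouse draining lymph nodes were chosen by the detection of marker genes in single cells. A cell was counted as a CD4 T cell with at least 1 UMI of Cd3d, Cd3e or Cd3g, at least 1 UMI of Cd4, and none of Cd8a, Cd8b1, Cd79a or Foxp3. It was counted as Tfh-like when at least 2 of the 5 markers Cxcr5, Pdcd1, Bcl6, Tox2 and Il21 each had a UMI. A UMI is a tag that marks 1 captured mRNA molecule, so that copies of it are counted once. The rule selected 186 of 4796 CD4 T cells and of 32725 filtered cells in all. Control libraries 1 and 2 gave 23 and 41 of these cells, and EV libraries 1 and 2 gave 60 and 62.

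The libraries came from wild-type C57BL/6 mice, with 2 control and 2 EV-treated biological replicates of 1 library each. The EV-treated mice received a total of 100 µg of extracellular vesicles (EVs) from induced pluripotent stem cells under the skin, and the comparison asks which immune cells of the draining node differ after this treatment. The methods of the study give PBS as the control injection and collection on day 5, whereas the sample labels record untreated controls and 24 h. Neither source says whether a replicate was 1 mouse or a pool, so the spread between replicates may be partly technical. The deposited barcodes of the control libraries held 50749656 and 58100433 UMIs and those of the EV libraries held 68116085 and 70418672 UMIs.

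Follicular helper T cells are the CD4 T cells that help B cells. The chemokine receptor CXCR5 brings them to B cell follicles, the repressor BCL6 is needed for their fate, and the contacts and cytokines they provide, among them ICOS, CD40 ligand, IL-21 and IL-4, sustain germinal centres and antibody class switching. PD-1, the product of Pdcd1, is a receptor that they carry at high density, and TOX2 is a nuclear factor that supports the fate. Other CD4 T cells can carry some of these genes, since PD-1 also marks activated cells and naive T cells transcribe some Bcl6.

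The 5 markers lie on separate chromosomes of the GRCm38 assembly (GENCODE M21 gene models). Cxcr5 is at chr9:44511787-44561877 and Pdcd1 at chr1:94038305-94052553, both on the reverse strand. Bcl6 is at chr16:23965052-23988852 and Il21 at chr3:37222759-37232636, also on the reverse strand, and Tox2 is at chr2:163203125-163324170 on the forward strand. All are protein-coding genes, and each UMI was read from the poly(A) end of a transcript.

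The cells carried the transcripts of T cells. Cd3e, a chain of the T cell receptor complex, had a UMI in 78.3% and 100% of the control Tfh-like cells (libraries 1 and 2) and in 96.7% and 98.4% of the EV ones. Trac, the receptor's alpha chain constant region, was detected in 91.3%, 92.7%, 100% and 96.8%. Ighm, an immunoglobulin gene of B cells, had a UMI in 60.9%, 48.8%, 58.3% and 58.1% of the Tfh-like cells, against 56.3%, 63.0%, 66.0% and 65.1% of the other CD4 T cells of the same libraries. Ighd had 0, 0, 5 and 3 UMIs in the Tfh-like cells and H2-Ab1 had 0, 5, 9 and 8. Ascl2, a transcription factor that induces CXCR5, was rare. It had 0 UMIs in the Tfh-like cells of both control libraries and 4 and 1 UMIs in those of the EV libraries. The cells are called Tfh-like by their rule and not by stage.

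The Tfh-like cells were deeper than the other CD4 T cells, with median UMIs of 7304 and 8054 in the control and 11385 and 9089.5 in the EV libraries. The other CD4 T cells had medians of 5948, 6915, 8210 and 7472 UMIs. Each library's Tfh-like cells were therefore between 1.16 and 1.39 times as deep as its other CD4 T cells. A deeper cell has more chances to show 2 markers, so depth moves with the choice of the cells. One Tfh-like cell, in control library 1, was called a doublet. Between 12 and 26 barcodes were shared by each pair of libraries.

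The share of Tfh-like cells among CD4 T cells was higher in the EV-treated nodes. It was 1.77% (23 of 1303 cells, 95% Wilson interval 1.18 to 2.63) and 2.69% (41 of 1527, 1.99 to 3.62) in control libraries 1 and 2. The share was 7.38% (60 of 813, 5.78 to 9.38) and 5.38% (62 of 1153, 4.22 to 6.83) in EV libraries 1 and 2. The groups did not overlap, at 6.38% ± 1.42 against 2.23% ± 0.650 (SD, n = 2 libraries each). The ratio was 2.87 and the difference 4.15 percentage points. With 2 libraries in each group the two-sided exact permutation p was 0.33, which is the smallest this design allows, so 0.05 cannot be reached. These intervals cover counting error only.

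CD4 T cells were themselves a smaller share of the EV libraries, and as a share of all filtered cells the ratio of EV to control was 1.82. Tfh-like cells were 0.283% and 0.520% of all cells in the control and 0.735% and 0.727% in the EV libraries. CD4 T cells made up 17.7% ± 2.37 of all control cells and 11.7% ± 2.52 in EV (SD, n = 2 libraries each). With at least 3 markers required, 2 and 11 control cells and 16 and 21 EV cells remained, or 0.153%, 0.720%, 1.97% and 1.82% of CD4 T cells. With every cell thinned at random to 3000 UMIs, 7 and 12 control cells and 21 and 23 EV cells had 2 markers, and the means were 0.668% and 2.29% of CD4 T cells. The control and EV libraries did not overlap in any of these counts.

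CD8 T cells, which should not be follicular helper cells, gave a background for the same rule. At least 2 markers were found in 46 of 2039 (2.26%) and 42 of 2108 (1.99%) CD8 T cells of the control libraries and in 43 of 1110 (3.87%) and 47 of 1482 (3.17%) of the EV libraries. Their median depth was 7195, 8434.5, 9744 and 8987 UMIs, above that of all CD4 T cells of the gate (5961, 6933, 8330 and 7527 UMIs). The share in CD4 T cells minus that in CD8 T cells was -0.49 and 0.69 percentage points in control nodes and 3.51 and 2.21 in EV nodes. With cells of both kinds thinned to 3000 UMIs, the CD8 shares were 0.247% and 0.143% in the control and 0.271% and 0.474% in the EV libraries, against 0.544%, 0.793%, 2.59% and 2.00% of CD4 T cells. The control shares were thus near the CD8 level at full depth and above it at matched depth, where they rested on 7 and 12 cells. At least 3 markers were found in 1, 0, 4 and 0 CD8 T cells. Most of the CD8 T cells with 2 markers carried Bcl6 as one of them, since without Bcl6 only 5, 1, 4 and 0 remained, while 8, 16, 27 and 25 CD4 T cells did.

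B cells carry Cxcr5 and Bcl6 themselves and also met the 2-marker rule, in 18.9% and 21.5% of the control and 30.2% and 31.9% of the EV B cells. Without Bcl6 only 3, 5, 6 and 6 of them did. B cells were also more numerous in the EV libraries, at 4672 and 4163 against 2878 and 2406. Within the Tfh-like cells the summed level of 11 B cell genes was 445 and 307 CPM in the control and 228 and 278 CPM in the EV libraries, lower in both EV libraries, with Ighm the most abundant in all but control library 2, where Cd74 was. Single cells carried part of the control sums. For each gene, 1 cell held 11 of 12 Ebf1 and 10 of 11 Bank1 UMIs in control library 1. In control library 2 it held 22 of 42 Cd74 and 11 of 13 H2-Aa UMIs. Ighd ran the other way, with UMIs in the EV libraries alone. With a stricter exclusion of B cell transcripts the share of Tfh-like cells was 2.08% in the control and 6.31% in the EV libraries, and without Bcl6 as a marker it was 0.831% and 2.74%.

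**Figure D1:**
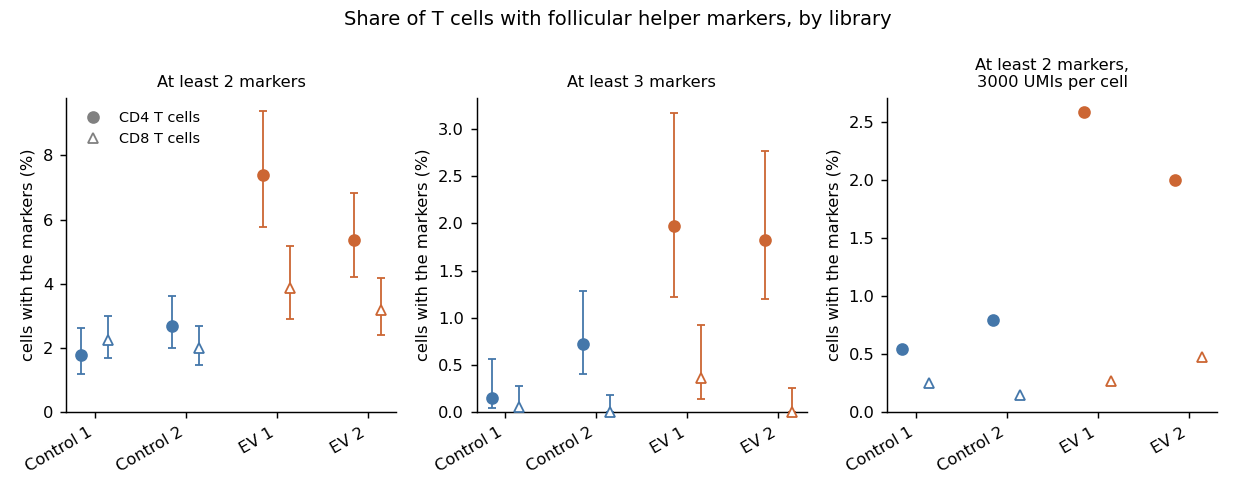
The share of CD4 T cells (filled circles) and CD8 T cells (open triangles) with the stated number of markers is plotted in % for each library, with 95% Wilson intervals in the left and middle panels and none in the right panel, where cells were thinned to 3000 UMIs. The CD4 shares of both EV libraries (7.38% and 5.38% at 2 markers) lie above both control libraries (1.77% and 2.69%), and in the left panel the intervals of the control CD4 and CD8 shares overlap.

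The markers themselves were measured over all CD4 T cells of the gate, a population picked without them. The UMIs of these cells were added up within each library and compared with edgeR's quasi-likelihood test, with p-values adjusted by the Benjamini-Hochberg method over 11685 genes. Levels are counts per 1000000 UMIs of the summed cells (CPM) after TMM scaling within each comparison, so the CPM of a gene differ slightly between comparisons. Tox2 was at 2.32 and 5.22 CPM in the control and 17.98 and 11.63 CPM in the EV libraries (log2 fold change 1.90 ± 0.30 SE, adjusted p = 0.0038). It was detected in 0.844% and 1.18% of the control and 3.81% and 2.78% of the EV CD4 T cells. Over the whole test 1.75% of genes were called higher in EV and 1.04% lower. The other 4 markers were higher in both EV libraries than in both controls without passing the threshold. Their log2 fold changes were 0.61 for Cxcr5, 0.91 for Pdcd1, 0.34 for Bcl6 and 1.48 for Il21, with adjusted p-values of 0.098, 0.079, 0.089 and 0.105. Each of them passed in some of 7 alternatives, Cxcr5 and Bcl6 in 3 and Pdcd1 and Il21 in 4, while the largest adjusted p over the alternatives was 0.61, 0.55, 0.49 and 0.76 in that order. In such sums a larger number of cells with a gene and more of its RNA per cell cannot be told apart.

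Il21, the cytokine that acts on germinal centre B cells, was the rarest marker, found in 3 and 7 control and 10 and 11 EV CD4 T cells. No CD8 T cell and no B cell of any library had an Il21 UMI, which allows up to 0.270% of CD8 T cells with a captured Il21 UMI in the library with fewest. This does not limit the share that carried the transcript uncaptured. Bcl6 was the most widespread, found in 275, 349, 238 and 321 CD4 T cells and at a like share of CD8 T cells (20.9%, 23.2%, 26.9% and 25.5%). Cxcr5 was found in 64, 71, 57 and 60 CD4 T cells and Pdcd1 in 27, 43, 46 and 52. The share of CD4 T cells with each of the 5 markers was higher in both EV libraries than in both control libraries.

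Each marker was also tested in cells chosen with the other 4, so that its own counts had no part in the choice. Tox2 was higher by 4.65 (log2) in cells with at least 2 of the other markers than in the rest of the CD4 T cells, Il21 by 4.38, Pdcd1 by 4.18, Cxcr5 by 2.98 and Bcl6 by 1.54, and all 5 passed edgeR's test after Benjamini-Hochberg adjustment. The share of all genes called higher in these comparisons was 6.72% without Cxcr5, 4.85% without Pdcd1, 5.38% without Bcl6, 5.01% without Tox2 and 5.60% without Il21. The rise of Bcl6 was absent in control library 1, where the chosen cells held 2 Bcl6 UMIs (23.2 CPM against 50.8 CPM in the rest). In the other libraries Bcl6 was at 153, 181 and 199 CPM in the chosen cells and at 45.8, 53.8 and 57.0 CPM in the rest. Cxcr5 likewise stood at 7.95 CPM against 8.75 CPM in control library 1, from 1 UMI.

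Pairs with Bcl6 made up most of the Tfh-like cells. The pair of Cxcr5 and Bcl6 alone marked 58 of the 186 cells (31.2%) and that of Pdcd1 and Bcl6 alone 38 (20.4%). The 4 markers Cxcr5, Pdcd1, Bcl6 and Tox2 without Il21 were found together in 9 cells, and all 5 in 5 cells, 1 of which was from a control library. Il21 was detected in 13.0% and 12.2% of the control and 13.3% and 17.7% of the EV Tfh-like cells, a value that the choice of the cells had used.

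Most listed follicular helper genes, which took no part in the choice, followed the number of markers. There were 3329 CD4 T cells with none of the markers, 1281 with 1 (just outside the threshold), 136 with 2 (just inside it) and 50 with 3 or more. Icos was at 75.6, 117, 330 and 439 CPM over these 4 classes and Maf at 21.9, 47.6, 222 and 611 CPM. These levels pool the libraries, and EV cells made up 1286, 558, 85 and 37 of the cells in these classes, so the mix of libraries differed between the classes. Within the control cells Maf was at 17.2, 34.5, 200 and 559 CPM and Icos at 70.4, 95.7, 399 and 696 CPM, and within the EV cells Maf was at 28.1, 61.9, 233 and 628 CPM and Icos at 82.5, 141, 296 and 358 CPM. Il4 was at 1.06 and 2.43 CPM outside the threshold and at 46.2 and 169 CPM inside it. In the pooled cells all 14 listed surface genes of follicular helper cells were higher at each step, as were 7 of 9 genes of B cell help and 8 of 10 transcription factors. Of 12 genes of naive and recirculating T cells, 5 were lower at each step and 0 higher at each step. From 0 to 1 marker 7 of the 12 were higher, and 0 were higher at either later step. Igfbp4, a gene of naive T cells, was at 270 and 280 CPM outside the threshold and at 121 and 28.2 CPM inside it. The classes share libraries and were given no test.

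**Figure D2:**
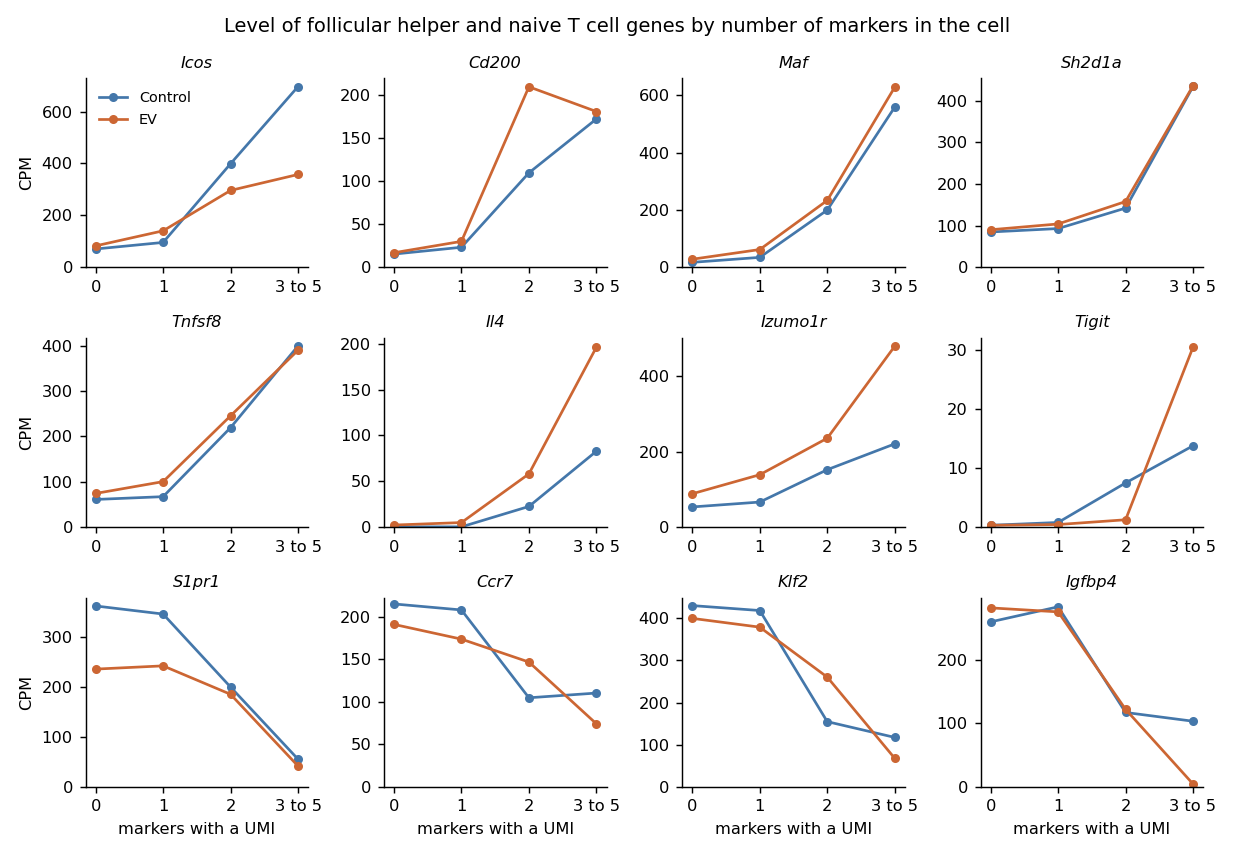
The level in CPM of 8 genes of follicular helper cells (top and middle rows) and 4 genes of naive T cells (bottom row) is plotted against the number of the 5 markers with a UMI in the cell, with cells of both libraries of a group summed (Control blue, EV orange, 1 sum per point and no error). The helper genes go up and the naive genes go down from 1 to 2 markers in both groups, as for Icos (117 to 330 CPM over all libraries) and Igfbp4 (280 to 121 CPM).

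The Tfh-like cells were then compared with the other CD4 T cells of the same libraries, that is, those with 0 or 1 marker, with library as a block. The 13 genes of the rule were left out. Of 10152 genes tested, 640 (6.30%) were higher and 447 (4.40%) lower, or 10.7% in all, and the median log2 fold change of all genes was -0.02. The count depended on the libraries, with 704 genes called without EV library 2. Over 3 lists of follicular helper genes, 25 of 31 tested genes were higher and 0 lower.

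Of the genes of B cell help, 6 of 9 were higher, with a list median of 1.25. Il4, a cytokine that drives class switching, was at 15.6 and 46.8 CPM in the control and 96.1 and 115.6 CPM in the EV Tfh-like cells, against 0, 0.396, 2.18 and 3.85 CPM in the other CD4 T cells of the same libraries. Its log2 fold change was 5.53 ± 0.38 (SE, adjusted p = 2.7e-10), and the lowest Tfh-like value exceeded the highest of the other cells. Icos, a costimulatory receptor needed for follicular helper cells, was at 391, 484, 315 and 307 CPM against 79.5, 82.0, 111 and 101 CPM (1.97 ± 0.14, adjusted p = 7.1e-10). Tnfsf8, which encodes CD30 ligand, was at 250, 255, 324 and 255 CPM against 65.6, 65.2, 79.4 and 90.3 CPM (1.85 ± 0.12). Slamf6, a homotypic adhesion receptor, rose by 1.47 and Sh2d1a, whose product SAP carries the signal of that receptor family, by 1.25. The gene of CD40 ligand, Cd40lg, did not pass (0.30 ± 0.12, adjusted p = 0.12), and it was at 183, 278, 171 and 214 CPM in the Tfh-like cells and at 148 to 189 CPM in the others.

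Of the surface genes, 12 of 13 were higher, with a median of 1.96. Cd200, the ligand of an inhibitory receptor and a marker of follicular helper cells, was at 162 and 98.8 CPM in the control and 189 and 201 CPM in the EV Tfh-like cells and at 16.8 to 25.5 CPM in the others (3.03 ± 0.16, adjusted p = 1.2e-11). Izumo1r, which encodes folate receptor 4, was at 172, 156, 287 and 349 CPM against 61.5, 57.9, 99.9 and 115 CPM (1.52 ± 0.12). The inhibitory receptor gene Tigit rose by 4.55 from a low level, with 6.42 to 16.3 CPM in the Tfh-like cells and 0.168 to 0.595 CPM in the others. Ctla4 rose by 1.90, Tnfrsf4 (OX40) by 2.60 and Btla by 1.25. S1pr2, the receptor that holds cells in the germinal centre, rose by 1.96 (adjusted p = 0.023) but had no UMI in the Tfh-like cells of control library 1. Il6ra did not pass, at 0.12.

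Of the transcription factors, 7 of 9 tested were higher, with a median of 1.19. Maf, which promotes Il4 and Il21, had the largest change of the list at 3.31 ± 0.15 (adjusted p = 6.7e-13), with 177 and 330 CPM in the control and 313 and 426 CPM in the EV Tfh-like cells against 22.9 to 45.1 CPM in the others. Irf4 rose by 2.25, Pou2af1 by 1.62, Nfatc1 by 1.40, Tox by 1.19, Id3 by 0.83 and Batf by 0.73. Tcf7 (TCF-1), a factor that naive T cells share, was at -0.13 (adjusted p = 0.53), and Stat3 was at -0.08.

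All 12 genes of naive and recirculating T cells were lower, with a median of -0.85. Igfbp4 (-1.73) and Dapl1 (-1.56) fell most in the list. Klf2, which maintains recirculation through lymph nodes, was at 141, 135, 180 and 193 CPM in the Tfh-like cells and at 472, 426, 426 and 396 CPM in the others (-1.35 ± 0.12, adjusted p = 1.0e-08). S1pr1, the receptor for leaving the node (-1.11), Il7r (-1.02) and Ccr7 (-0.90) were lower too. In each of these 6 genes the highest Tfh-like value lay below the lowest of the other cells.

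Genes outside the follicular program also rose. Of 12 tested genes of other helper fates, 8 were higher, among them Cxcr3 (2.92), Tbx21 (2.01), Rora (1.69) and Gata3 (0.85), which belong to type 1, type 17 and type 2 helper cells. Of 9 genes of regulatory T cells, 6 were higher, although cells with a Foxp3 UMI were left out. Ikzf2 (Helios) was at 673 and 312 CPM in the control and 217 and 202 CPM in the EV Tfh-like cells, against 54.4 to 83.8 CPM in the others (2.18 ± 0.16), and Nrp1 rose by 2.96. The summed level of the 11 regulatory T cell genes was 1381, 907, 549 and 609 CPM in the Tfh-like cells and 192 to 232 CPM in the others, with Ikzf2 the most abundant in all but EV library 2, where Nrp1 was. Lrrc32 had 0 UMIs in the Tfh-like cells of all 4 libraries. When cells with a UMI of Il2ra or Ikzf2 were left out as well, 549 genes were called and the share of Tfh-like cells was 1.29% of the control and 4.58% of the EV CD4 T cells.

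All 5 tested checkpoint genes were higher, among them Lag3 (3.48) and Nt5e (2.23), which encodes CD73. Of the early genes of T cell receptor signalling, 4 of 10 were higher (Egr1, Egr2, Egr3 and Nr4a1) and Myc was lower (-0.92). The direction of Egr3 turned, to -0.47 with at least 3 markers and to -1.67 after thinning. The innate-like T cell factor Zbtb16 rose by 4.66, with 110 and 59.8 CPM in the control and 7.39 and 4.82 CPM in the EV Tfh-like cells, and its control UMIs came from a single cell in each library. Il2rb was the most abundant gene of that list in all 4 libraries, and Ncr1 had 0 UMIs in every one. Counted over control libraries 1 and 2 and then EV libraries 1 and 2, 3 other genes of the list had UMIs in the EV libraries alone, with 0, 0, 1 and 11 UMIs of Klrb1c, 0, 0, 2 and 6 of Klrk1 and 0, 0, 1 and 10 of Xcl1. Cells with a UMI of Zbtb16 or of 4 gamma delta receptor genes were 4.35% and 2.44% of the control and 8.33% and 6.45% of the EV Tfh-like cells. These were only 1, 1, 5 and 4 cells, and the shares of the other CD4 T cells were 2.66%, 2.62%, 2.92% and 2.66%. The part of such cells in these results was not tested, but 1019 genes were called without them. None of 13 tested chaperone genes and none of 6 cell cycle genes were called.

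**Figure D3:**
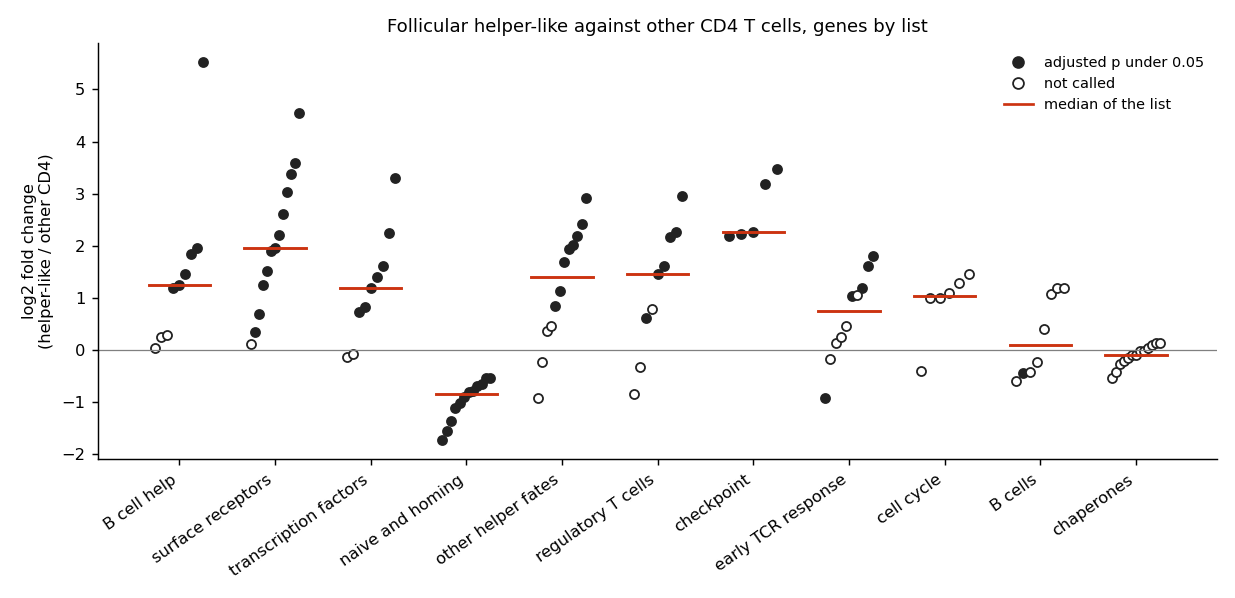
Each point is the log2 fold change of 1 gene between Tfh-like and other CD4 T cells of the same 4 libraries, grouped by gene list, filled where edgeR's adjusted p was under 0.05, with the median of each list as a red line. The follicular helper lists have medians of 1.25, 1.96 and 1.19, all 12 naive and homing genes lie below 0, and the chaperone genes have a median of -0.09.

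The largest rises that were shared by all 4 libraries and reached a mean of 20 CPM, besides Il4, Zbtb16 and Lag3, were those of Ttc39c, Wnt10a, Alcam, Ptpn13, Gpm6b, Eea1 and Osbpl3. Gpm6b, a membrane glycoprotein gene, was at 88.7, 88.4, 78.3 and 148 CPM against 5.15 to 13.6 CPM in the other cells (3.59 ± 0.25, adjusted p = 4.5e-10). Alcam, an adhesion molecule gene, was at 52.2, 20.8, 182 and 75.5 CPM against 3.87 to 8.31 CPM (3.70 ± 0.32), but 93 of its 123 UMIs in EV library 1 came from 1 cell. Wnt10a was at 104 and 33.8 CPM in the control and 7.39 and 14.5 CPM in the EV Tfh-like cells. The largest falls by the same rule, besides Igfbp4 and Dapl1, were those of Gm16083 (-2.26), Ly6c1 (-1.83), Pdlim4, Lypd6b, Smad7, Cd55, Ust and Rasgrp2. Ly6c1, a surface antigen gene of naive and memory T cells, was at 5.22, 44.2, 41.4 and 24.1 CPM against 98.3 to 122 CPM.

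Regulatory T cells, the CD4 T cells that carry Foxp3, were kept out of the gate and served as a further reference, with 294 cells (96, 86, 50 and 62 per library). Against Foxp3+ CD4 T cells, the test called 603 of 7257 genes (8.31%), with 260 up (3.58%) and 343 down (4.73%). Over the 3 lists of follicular helper genes 13 of 28 were higher and 2 lower. Of 10 tested regulatory T cell genes, 9 were lower, with Il2ra at 5.59, 72.6, 23.8 and 6.47 CPM against 410, 411, 460 and 490 CPM (-4.10 ± 0.33, adjusted p = 2.0e-09) and Ikzf2 at -2.64. Cd40lg, which did not pass the test against the other CD4 T cells, was at 196, 288, 172 and 215 CPM against 33.9, 67.0, 25.3 and 40.3 CPM in the Foxp3+ cells (2.39 ± 0.17, adjusted p = 5.1e-10). Tcf7 (1.38), Cd200 (2.41), Tnfsf8 (2.18) and Themis (1.48), a gene of T cell receptor signalling, were higher. Ctla4 (-1.98) and Tnfrsf4 (-1.86) were lower in the Tfh-like cells, whereas Icos, Maf and Izumo1r did not pass the test.

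**Figure D4:**
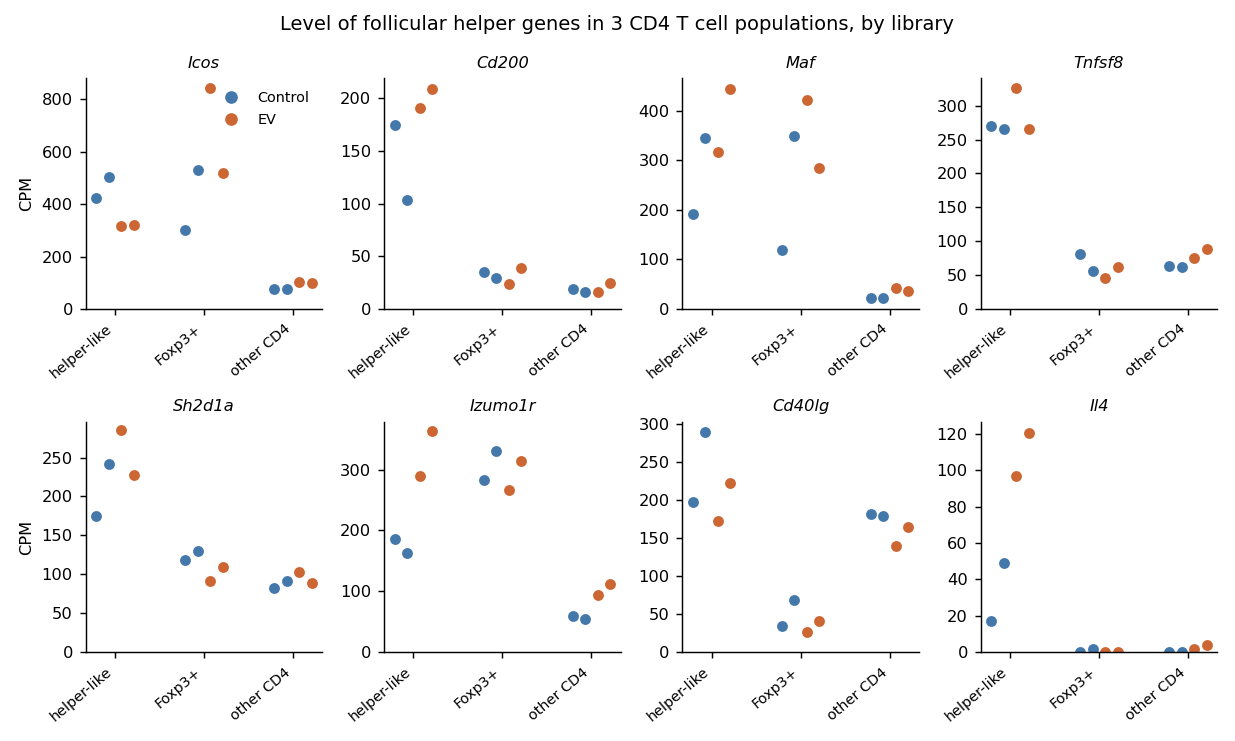
The level in CPM of 8 genes is plotted for each of the 4 libraries (Control blue, EV orange) in Tfh-like cells, Foxp3+ CD4 T cells and the other CD4 T cells, from counts summed per library without further scaling. In every library Cd200, Tnfsf8 and Il4 are highest in the Tfh-like cells and Cd40lg is lowest in the Foxp3+ cells (26.3 to 69.0 CPM), while Icos and Maf overlap between the Tfh-like and Foxp3+ cells.

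The follicular program was also compared between EV and control nodes over all CD4 T cells, where the choice of cells cannot enter. Of 31 tested genes in the 3 lists, 14 were higher and 0 lower in EV, where 1.75% of all genes were higher and 1.04% lower. Sostdc1 was among the 14, but 1 cell per EV library held 18 of 19 and 16 of 16 of its UMIs in the Tfh-like cells. Il4 was at 0.366 and 2.02 CPM in the control and 11.3 and 11.3 CPM in the EV libraries (3.12 ± 0.39, adjusted p = 6.7e-04). Maf was at 25.8 and 32.8 CPM against 69.8 and 62.2 CPM (1.16 ± 0.12, adjusted p = 2.1e-04), and Izumo1r at 61.5 and 59.0 CPM against 114 and 127 CPM (1.01 ± 0.10). Gpm6b rose by 1.21, Cd200 by 0.75, Tnfsf8 by 0.54, Tox by 0.45, Icos by 0.43 and Btla by 0.41. Groups did not overlap for these genes. The number of all genes called was 326, and it was 146 without control library 1, 2076 without EV library 1 and 836 without EV library 2. Of the same lists, 6 of 30 genes rose in the CD4 T cells with 0 or 1 marker (Il4, P2rx7, Izumo1r, Maf, Stat3 and Batf), where 0.915% of all genes were higher and 0.535% lower. Izumo1r rose there by 0.87 ± 0.10 and Maf by 0.84 ± 0.13, so these changes were not confined to the cells with 2 markers. Median depth per CD4 T cell was also higher in the EV libraries, and its part in these results was not tested.

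Within the Tfh-like cells, EV and control libraries were compared over 6480 genes, of which 38 were called (0.586%), 19 higher (0.293%) and 19 lower (0.293%) in EV. None of the 29 tested follicular helper genes was called, and 22 of them had log2 fold changes above 0. These were 4 of 9 genes of B cell help, 10 of 12 surface genes and 8 of 8 transcription factors. The median was -0.20 for the genes of B cell help and -0.01 over all tested genes. Il4 was at 17.0 and 49.4 CPM in the control and 97.9 and 118 CPM in the EV Tfh-like cells (1.50 ± 0.37, adjusted p = 0.11), and 8.70% and 9.76% of the control against 25.0% and 29.0% of the EV cells had an Il4 UMI. Icos was at 424 and 510 CPM against 321 and 312 CPM (-0.58 ± 0.20, adjusted p = 0.31). For Il4 and Icos the groups did not overlap, in opposite directions, whereas Maf and Sh2d1a overlapped. The number of calls varied widely, with 0 genes called without control library 2, 5 without control library 1, 0 with at least 3 markers and 0 after thinning, while leaving out EV library 1 or 2 gave 69 or 118. In these fits the group left with 1 library is assumed to vary like the other group. At an unadjusted p under 0.05, 675 genes passed, and DESeq2 called 24. Genes of other cell states moved with the groups, since the summed regulatory T cell genes (1381 and 907 CPM in the control, 549 and 609 CPM in the EV Tfh-like cells) and the share of cells with Mki67 or Top2a given below were higher in both control libraries. Their part in these results was not tested, and 22 genes were called without the cells with Mki67 or Top2a and 41 without cells that had Il2ra or Ikzf2. In control library 1, 54 of the 129 Ikzf2 UMIs came from 1 cell. Cells that met the rule at the background level may also make up a different part of the Tfh-like cells in each group. The CD4 share minus the CD8 share was -0.49 and 0.69 percentage points in the control and 3.51 and 2.21 in the EV libraries. The part of such background cells in these results was not tested.

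Igf1r, the receptor of insulin-like growth factor 1, had the smallest p of the 38 genes. It was at 50.9 and 60.3 CPM in the control and 336 and 318 CPM in the EV Tfh-like cells, a log2 fold change of 2.52 ± 0.27 (adjusted p = 0.0016). Its UMIs came from 7 of 23 and 9 of 41 control cells and from 27 of 60 and 21 of 62 EV cells. The gene also rose in the other CD4 T cells, by 0.59 ± 0.10, and the change in Tfh-like cells was larger by 2.00 ± 0.30 (adjusted p = 1.7e-07). It remained called in 15 of 18 alternative settings, and its adjusted p was 0.20 without control library 2 and 0.49 with thinned cells. With at least 3 markers the adjusted p was 0.47.

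Lag3, a checkpoint receptor gene, was at 11.3 and 10.97 CPM in the control and 66.3 and 86.5 CPM in the EV Tfh-like cells (2.75 ± 0.47, adjusted p = 0.021). It was found in 2 cells of each control library and in 16 and 14 EV cells. The gene rose in the other CD4 T cells too, by 3.53 ± 0.43, and the effect was not shown to differ (-0.61 ± 0.87, adjusted p = 0.97). Further rises were those of Fam20a, Farp1, Baz1a, Arid5b, Sh3rf1, Etv6 and Hdac7, with log2 fold changes from 1.57 to 4.46. Arid5b, a chromatin regulator gene, was at 390 and 288 CPM against 1212 and 795 CPM (1.59 ± 0.24, adjusted p = 0.013). Padi4 had no UMI in the control cells and 34 and 30 UMIs in the EV cells, which is at least 9.18-fold higher against a floor of 3 counts over the group, but the EV counts came from 6 cells. Other called rises were those of Prkca, Stat4, Malt1, Hivep2, Gpr183, Abtb2, Arhgap15, Ipcef1 and Zswim6. Stat4, a transducer of type 1 helper signals, was at 170 and 123 CPM against 428 and 333 CPM (1.42 ± 0.25). Of the 19 rises, 18 could be tested in the other CD4 T cells and 9 were called higher there, where 0.915% of all genes were. Of the 19 falls, 17 could be tested there and 4 were called lower, against 0.535% of all genes.

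The falls rested on fewer cells than the rises. The median number of cells of the higher group that carried the gene was 13 of 64 control cells for the 19 falls and 99 of 122 EV cells for the 19 rises. For 6 falls (Gm44756, Lyz2, Sema6d, Tcrg-C2, Tmem176a and Zbtb16) and for 1 rise (Padi4), over 50% of the UMIs of the higher group came from the single richest cell of each library. All Zbtb16 UMIs of the control Tfh-like cells (21 and 23) and all Tcrg-C2 UMIs (8 and 9) came from 1 cell per library, so these falls rest on 1 cell in each control library. Gm44756 had 21 UMIs in 8 control cells and none in the EV cells, at least 16.3-fold lower against the same floor. Capg, a gene of actin binding, had broader support, at 209 and 165 CPM against 55.7 and 50.6 CPM (-1.77 ± 0.27, adjusted p = 0.013), from 28 control and 37 EV cells. It was also in the list of regulatory T cell genes. Of the 7 tested genes of that list, 1 had a log2 fold change above 0, and their median was -1.25. Il9r (-4.52) came from 13 control and 2 EV cells, and Rgcc (-1.64) from 38 and 40. The remaining falls were those of Xkr6, Cass4, Tent5a, Gm14718, Gprin3, Nebl, Cd96, Lrig1, Trerf1 and Cdk8.

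**Figure D5:**
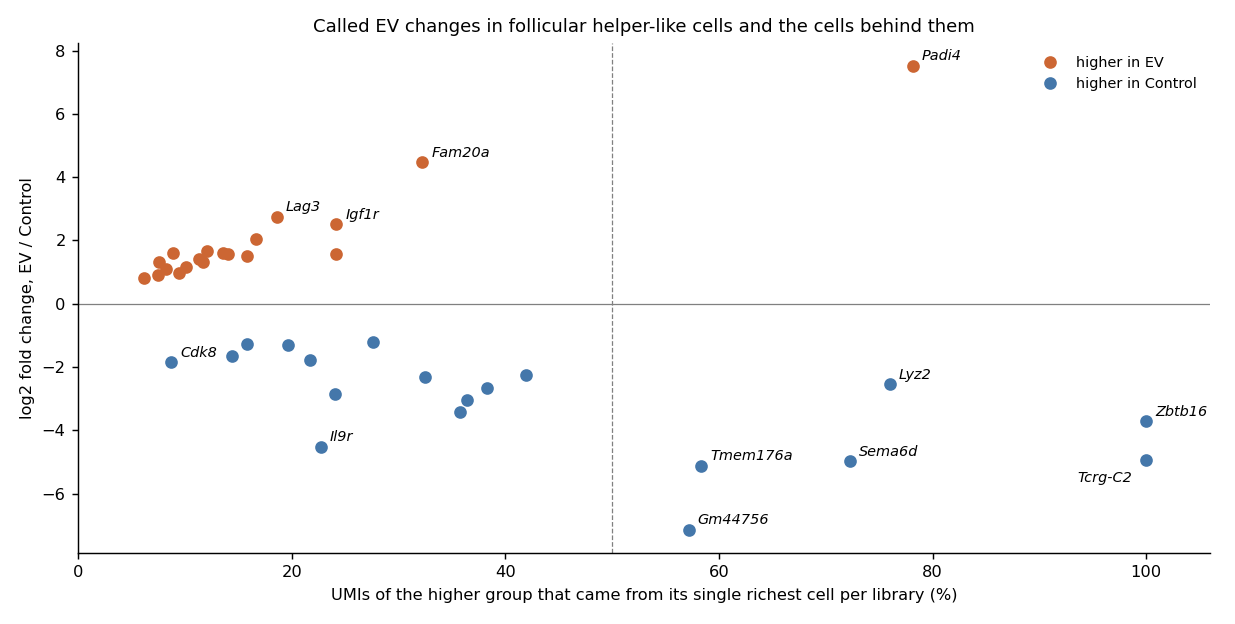
Each point is 1 of the 38 genes called between EV and control Tfh-like cells, plotted by the share (%) of the higher group's UMIs that came from its single richest cell in each library and by its log2 fold change, where the values of Padi4 and Gm44756 depend on a prior count because 1 group is at 0. Igf1r and Lag3 lie left of the dashed line at 50%, and Zbtb16 and Tcrg-C2 lie at 100%.

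Of the chaperone, interferon response and nuclear or rRNA-like genes tested, 0 were called between EV and control Tfh-like cells. The 13 tested chaperone genes had a median log2 fold change of 0.55. In the other CD4 T cells, where many more cells were summed and 0.915% of all genes were called higher, 13 of 14 were called higher (median 0.72). The test of the difference between the populations called 0 of 14, so the response was not shown to differ. Of the chaperone genes, Hspa8 was at 747 and 647 CPM against 1345 and 1138 CPM in the Tfh-like cells (0.84 ± 0.18, adjusted p = 0.072). Interferon response genes had a median of 0.69 over the 9 tested. In the other cells 7 of 12 were called higher (median 0.80), and the test of the difference called 0 of 12. Cdk8, a kinase of the Mediator complex, was at 769 and 387 CPM in the control and 221 and 86.5 CPM in the EV Tfh-like cells (-1.85 ± 0.38, adjusted p = 0.045). It also fell in the other CD4 T cells (-1.92 ± 0.38), and the effect was not shown to differ (0.16 ± 0.19, adjusted p = 0.96). Of 5 abundant nuclear or rRNA-like transcripts 0 were called. Their median was -1.64, and Gm42418 was at 9062 and 11219 CPM against 5087 and 697 CPM (-1.81 ± 0.54, adjusted p = 0.19), and their part in the Cdk8 result was not tested. DESeq2 did not call Cdk8 in the Tfh-like cells (adjusted p = 0.39).

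The EV change differed between Tfh-like and other CD4 T cells for 61 of 10969 genes (0.556%), with a more positive change in Tfh-like cells for 37 (0.337%) and a more negative one for 24 (0.219%). Of the 38 genes called within the Tfh-like cells, 14 rises and 7 falls were among them. Baz1a, a chromatin remodelling gene, was at 124 and 126 CPM in the control and 440 and 362 CPM in the EV Tfh-like cells (1.68 ± 0.24, adjusted p = 0.013), and its change exceeded that in the other cells by 1.45 ± 0.24 (adjusted p = 4.7e-06). Gpr183, the receptor that positions lymphocytes at the edge of the follicle, was at 170 and 241 CPM against 569 and 486 CPM (1.32 ± 0.23, adjusted p = 0.021), with a difference of 1.27 ± 0.19. In the list of follicular genes, the change of Icos was lower in Tfh-like cells by 0.89 ± 0.20 (adjusted p = 0.0056) and that of Tox was higher by 0.52 ± 0.12 (adjusted p = 0.0082). These calls were lost in 5 and 4 of 7 alternatives. The count was 7 without EV library 1 and 23 without EV library 2.

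Cell cycle genes and germinal centre-like B cells were looked at last. A UMI of Mki67 or Top2a was found in 26.1% and 26.8% of the control (6 of 23 and 11 of 41) and 13.3% and 14.5% of the EV Tfh-like cells (8 of 60 and 9 of 62), against 2.97%, 2.96%, 4.52% and 4.86% of the other CD4 T cells. Control and EV libraries did not overlap in either population, with opposite directions and an exact permutation p of 0.33 for each. The pair of genes was picked after the data were seen, and other cell cycle genes were sparse or did not stand out from the other CD4 T cells. Stmn1 had a UMI in 17.4%, 14.6%, 13.3% and 11.3% of the Tfh-like cells and in 15.9%, 18.7%, 20.7% and 20.8% of the others. Birc5, Ccnb2, Pclaf, Rrm2 and Ube2c had 0 UMIs in the Tfh-like cells of control library 1, and of the 10 cell cycle genes only 2 could be tested between EV and control Tfh-like cells, with 0 called. Without the cells with Mki67 or Top2a the share of Tfh-like cells was 1.69% of the control and 5.80% of the EV CD4 T cells. B cells with the germinal centre pattern were 0.382% and 1.45% of the control and 0.792% and 1.01% of the EV B cells. Their means were 0.918% and 0.900% and the groups overlapped, so no difference was detectable at this depth.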

How the data were processed

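Single-cell 3′ libraries were processed by the authors with Cell Ranger 7.1.0 on mm10 (submitters' processing notes), and the deposited values are raw UMI counts per gene and barcode for 32285 genes. Barcodes with 200 to 5000 genes, at most 20000 UMIs and at most 10% mitochondrial UMIs were kept. Doublets were called by Scrublet in scanpy 1.11.5 (expected 6%) and kept, except in an alternative. Counts were summed per library and population, and the sums were tested with edgeR 4.0.16 (TMM, filterByExpr, quasi-likelihood F test, library as a block between populations of the same libraries) with Benjamini-Hochberg adjustment at 0.05. DESeq2 1.42.0, other gates, thinning and leaving out each library were alternatives. The tests were also run on simulated data with known changes, whose outcome is not given here. That simulation drew library sums and not single cells. Leaving out cells with innate-like genes, or with Mki67 or Top2a, was chosen after seeing the data. The members and gene lists were chosen with earlier results of these data known.

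Genes named were the markers and gate genes, called members of the gene lists (for follicular helper lists also members not called), the 10 largest rises and falls of Tfh-like against other CD4 T cells (mean of at least 20 CPM, same direction in 4 libraries), the 10 largest of EV against control without overlap, the 5 largest differences of effect in each direction, Cdk8, and genes the study names. Themis, Rgcc, Ebf1, Bank1, H2-Aa and the remaining called genes of EV against control were chosen after their values were seen. The 13 genes of the gate and marker rule were not tested as outcomes, except where a marker had no part in the choice. With 2 libraries a group, precision is limited by the libraries and by the 23 to 62 cells summed in each. Some genes, and a planned comparison that rests on one, are not reported here.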

Additional observations from a re-analysis of the deposited data

Results flagged for a closer look

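The EV change differed between Tfh-like and other CD4 T cells, by edgeR's interaction test, for the genes below, given as the log2 change in Tfh-like cells minus that in the other cells. Igf1r had a difference of 2.00 (adjusted p = 1.7e-07), Hdac7 of 1.79 (adjusted p = 1.8e-04), Nr6a1 of 2.71 (adjusted p = 0.034) and 2700097O09Rik of 2.66 (adjusted p = 0.0077). The fitted difference of Alpk2 was 9.98 (adjusted p = 0.046), a value set by a prior count because the control Tfh-like cells had 0 UMIs, and its 47 EV UMIs came from 20 cells. The call of Alpk2 was lost in all 6 alternatives that gave a value (adjusted p 0.058 to 0.94), that of Nr6a1 in 6 of 7 and that of Hdac7 in 3 of 7, while Igf1r lost it in 1 of 7. Among naive T cell genes Foxp1 (0.48) and Satb1 (0.56) had more positive changes in Tfh-like cells, as did the follicular factor gene Tox (0.52).

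The change was more negative in Tfh-like cells for Tmem176a (-4.50), Zfp637 (-3.52), Coro2a (-3.13), Cd86 (-2.73), Fabp5 (-2.55), Cd74 (-1.88), Capg (-1.25) and Icos (-0.89). Of the 51 Fabp5 UMIs in control Tfh-like cells, 24 came from 1 cell of control library 2. Of the 42 Cd74 UMIs of that library, 22 came from 1 cell, as did 12 of the 19 Cd86 UMIs of control library 1. The 36 control UMIs of Tmem176a came from 3 cells, and the 25 of Coro2a from 12. Icos was at 387 and 480 CPM in the control and 312 and 307 CPM in the EV Tfh-like cells, and at 80.1 and 82.5 CPM against 111 and 102 CPM in the other CD4 T cells. Its EV change passed in neither population alone (adjusted p = 0.31 and 0.055), and the call of the difference was lost in 5 of 7 alternatives (adjusted p up to 0.99). The calls of Capg and Foxp1 were lost in 5 of 7, those of 2700097O09Rik, Satb1, Tox and Zfp637 in 4 of 7, those of Cd74 in 3 of 7 and Coro2a in 2 of 7, that of Tmem176a in 3 of 6, and those of Cd86 and Fabp5 were lost in 3 of 7 and turned direction in 1.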

How the results depend on the processing

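The number of genes called between EV and control Tfh-like cells (38) was the least stable. It was 3 with a stricter exclusion of B cell transcripts, 0 with at least 3 markers, 0 after thinning to 3000 UMIs, 24 with DESeq2, 204 without filterByExpr, 22 without cells with a Mki67 or Top2a UMI, 163 with a replicate block, and 0 to 118 when 1 library was left out. The 1087 genes between Tfh-like and other CD4 T cells became 549 with Il2ra and Ikzf2 also at 0, 437 after thinning and 617 in the control libraries alone, and 704 to 1056 when 1 library was left out. The 61 differences of effect became 3 after thinning and 7 to 82 when 1 library was left out. The 326 genes in all CD4 T cells became 826 with the replicate block, 792 without filterByExpr and 179 with DESeq2, and ranged from 146 to 2076 when 1 library was left out. The cause was not tested. The difference in share (4.15 percentage points) kept its direction in every alternative and was 1.46 with at least 3 markers, 1.63 after thinning, 7.19 with at least 1 marker, 2.91 without Cxcr5, 2.72 without Pdcd1, 1.91 without Bcl6 and 0.33 as a share of all cells, with 3.15 to 5.16 when 1 library was left out.

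Directions turned against the other CD4 T cells for Egr3 (-0.47 with at least 3 markers, -1.67 after thinning), Id2 (-0.71 after thinning) and Dusp1 (-0.51 after thinning), and in the difference of effects for Cd86 (7.32 after thinning) and Fabp5 (0.27 without control library 2, with a range from -3.74 to 0.27 when 1 library was left out). Neither the labels nor the methods say that same-numbered libraries were handled together. The correlation of their deviations from the group means was 0.0033 in Tfh-like cells and 0.080 in all CD4 T cells. A low correlation in such sums cannot exclude shared handling. The replicate block is therefore an alternative and not a known pairing.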
